A study of Mus musculus with 6 samples.

Results

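General markers of fibroblast identity were followed in cells grown from adult mouse heart and from skinned tail. The 10 genes, taken by name from 20676 named genes on the array, were Pdgfra, Pdgfrb, Ddr2, Cd44, Thy1, Fap, Vim, S100a4, Postn and Fn1. They were read by 15 of the 55681 probes, each matched to its gene through the RefSeq accession that the array files give. The genes were chosen by name, but with earlier results of these data known. The heart group held 3 cultures and the tail group 3 cultures, all from male C57/Bl6-J mice, aged 8 weeks in the sample labels and 8 to 10 weeks in the protocol, with no allele or agent that differed between groups. Chopped hearts or pieces of skinned tail were digested with trypsin or collagenase, plated for 5 days in serum-containing medium and harvested as whole dishes. Each culture was pooled from 2 animals per the series design text, and no sorting step is named, so other adherent cells could be present. RNA was labelled with Cy3 and hybridised to 1-colour Agilent arrays, 1 per culture, all on 1 slide.

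Fibroblasts are the matrix-building cells of connective tissue. No single gene defines them, and they are usually recognised by a combination of surface receptors, a cytoskeletal filament and secreted matrix proteins. PDGF receptors drive their growth and migration, Ddr2 senses fibrillar collagen, Cd44 binds hyaluronan, and Thy1 is an anchored surface glycoprotein used to sort them. Fap is a surface peptidase of activated stroma, Vim builds their intermediate filaments, S100a4 is a calcium-binding protein also known as fibroblast-specific protein, and Postn and Fn1 are secreted matrix glycoproteins.

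Levels are given as log2 of the background-subtracted signal minus the 75th percentile of all non-control spots of the same array, so 0 means a signal equal to that percentile. Levels of different probes are not compared. All 10 genes were well above background on all 6 arrays, and none of their spots was saturated. On heart 2 this flag was set for 99.3% of spots, so it says little there. Of 7 keratinocyte genes, 4 were well above background on heart 1, heart 3 and tail 2, and 3 on tail 3. Cdh1 and Epcam were not well above background on any of these arrays. Bulk RNA cannot tell fewer cells of a type from less RNA per cell.

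The arrays labelled heart 2 and tail 1 stood apart from their groups. On heart 2, 99.3% of spots were well above background, against 47.3% to 55.2% on the other arrays, and its signals correlated with theirs at 0.742 to 0.764 across probes, against 0.957 to 0.988 among the others. Heart 2 correlated at 0.745 and 0.749 with heart 1 and 3. With tail 1, 2 and 3 it correlated at 0.742, 0.762 and 0.764. For the array labelled tail 1 the correlation was 0.988 with heart 1 and 0.979 with heart 3, but only 0.969 with tail 2 and 0.957 with tail 3. Each gene was therefore compared by label over 6 arrays, over 5 arrays without heart 2, and over 4 arrays (heart 1 and 3 with tail 2 and 3). Heart 2 was doubted from its scanner values. Leaving out tail 1 rests on the outcome itself, which makes p-values over 4 arrays too small, by how much is not known. Tail 1, and heart 2 in several measures below, went against their labels; whether labels were exchanged was not tested, and arrays kept their labelled groups throughout.

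By label, none of the 10 genes passed the test over 6 arrays. Their log2 differences (heart minus tail) ran from -1.30 for Thy1 to 0.38 for Fap, with standard errors from 0.53 to 1.17 and limma adjusted p from 0.726 to 0.925. The test called 0% of 20257 features, 453 had an unadjusted p under 0.05, and the smallest adjusted p was 0.188. No member had groups that did not overlap, where 10.1% of features did. Without heart 2 again 0 of 10 passed (adjusted p 0.696 to 0.835), as did 0% of 20267 features, with 580 at an unadjusted p under 0.05. An exact permutation test over 3 against 3 arrays could not go below p = 0.1. When each of the 6 arrays was weighted by its own residual spread (limma array weights), 10.1% of features were called. Among them were Fap (log2 difference 2.44, adjusted p = 0.0362), Thy1 (-1.77, adjusted p = 0.037) and Cd44 (-1.46, adjusted p = 0.0388). Arrays far from their labelled group count for less in this fit, so the weights rest on the outcome itself. Its p-values may therefore be too small, by how much is not known. The differences came close to those found without the arrays that stood apart (2.54 for Fap, -1.88 for Thy1 and -1.52 for Cd44).

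Over the 4 arrays, Fap and Pdgfra were higher in heart and Thy1, Cd44 and S100a4 were lower, while the other 5 did not pass. That is 5 of 10 genes, where 14.2% of 20549 features were called, 7.73% higher and 6.51% lower. All 10 genes had groups that did not overlap, which 62.3% of features also did. The median absolute log2 difference of the 10 genes was 0.96, against 0.32 over all features tested. Without the filter on dim probes, which brought 37066 features into the test, none of the 10 passed (adjusted p 0.0554 for Thy1 and 0.0661 for Fap). Where 1 of the 4 arrays is left out below, an arm holds 1 array, which is assumed to vary like the other group, so such a p shows no stability.

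**Figure D1:**
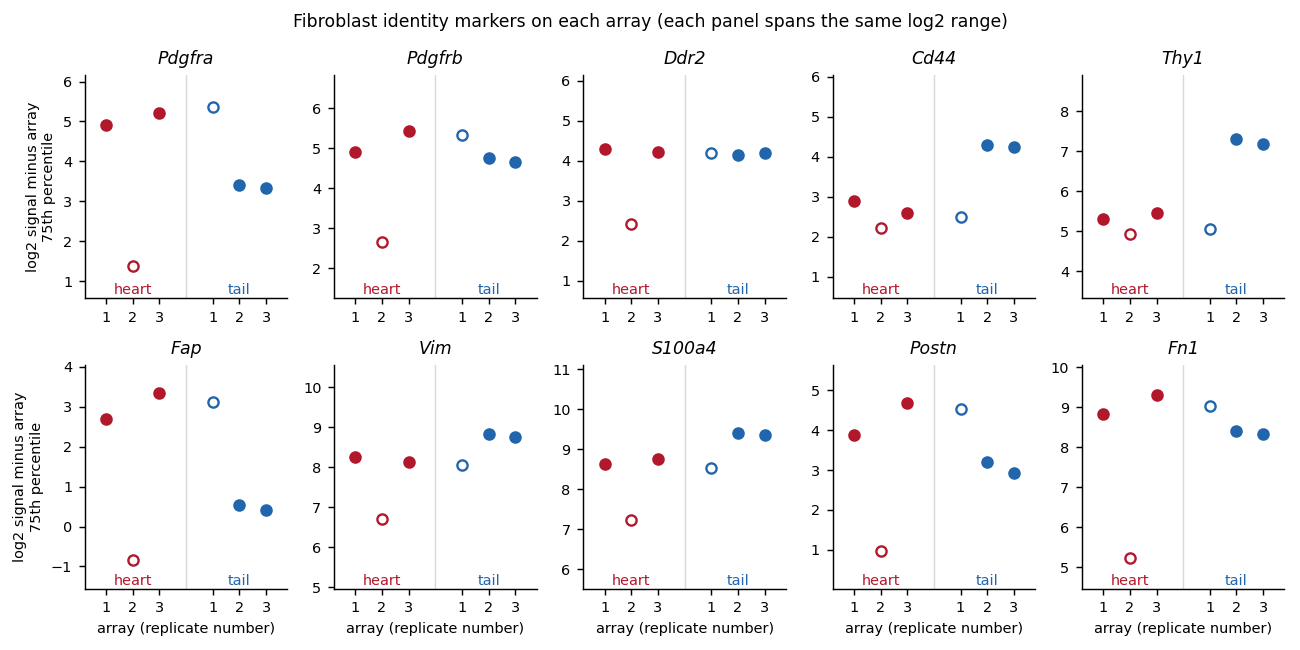
Level of each marker on each array (log2 signal minus the array's 75th percentile), heart arrays 1 to 3 in red and tail arrays 1 to 3 in blue; open circles mark the arrays labelled heart 2 and tail 1. Heart 2 is the lowest of 6 arrays for all 10 genes, on a scale where it is below heart 1 and 3 for 66.5% of 20257 features. Tail 1 lies nearer to heart 1 and 3 than to tail 2 and 3 for 9 of the 10 genes, and the share over all features was not computed.

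For 3 of the genes that were called over 4 arrays, Cd44, Pdgfra and S100a4, the stretch around the annotated start is shown, since they moved in opposite directions. RefSeq promoters (build GRCm38.p6, 250 bases before to 50 after the start) were on hand for 6 of the 10 genes. Thy1 and Fap were not among them. The Cd44 promoter lies at chr2:102901616-102901915 on the minus strand, the Pdgfra promoter at chr5:75152001-75152300 on the plus strand and the S100a4 promoter at chr3:90603520-90603819 on the plus strand. Capitals mark matches to 5 motifs searched on both strands, the GC box (GGGCGG), the TATA box (TATAAA), the CCAAT box (CCAAT), the AP-1 site (TGANTCA) and the TEAD site (GGAATG).
Cd44: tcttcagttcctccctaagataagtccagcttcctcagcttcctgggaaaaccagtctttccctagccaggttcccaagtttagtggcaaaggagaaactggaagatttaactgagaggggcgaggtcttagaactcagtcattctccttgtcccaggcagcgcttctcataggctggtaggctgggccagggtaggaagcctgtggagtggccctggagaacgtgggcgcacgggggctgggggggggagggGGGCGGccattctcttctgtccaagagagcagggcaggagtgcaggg
Pdgfra: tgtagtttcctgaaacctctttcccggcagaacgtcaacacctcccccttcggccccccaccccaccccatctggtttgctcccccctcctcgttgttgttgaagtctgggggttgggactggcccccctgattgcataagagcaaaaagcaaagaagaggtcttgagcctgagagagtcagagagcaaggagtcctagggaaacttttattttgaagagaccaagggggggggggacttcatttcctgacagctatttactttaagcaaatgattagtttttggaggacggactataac
S100a4: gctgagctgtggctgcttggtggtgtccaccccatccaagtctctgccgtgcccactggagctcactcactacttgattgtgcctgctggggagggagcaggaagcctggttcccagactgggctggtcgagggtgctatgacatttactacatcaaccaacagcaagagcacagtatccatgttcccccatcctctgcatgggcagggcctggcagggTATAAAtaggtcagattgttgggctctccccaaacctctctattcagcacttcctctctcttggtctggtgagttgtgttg
The S100a4 window holds 1 TATA box, 31 bases before the start, a motif found in 13.6% of 32851 RefSeq promoters of the same length. The Cd44 window holds 1 GC box, from base 4 after the start, a motif found in 35.7% of them. These letters were not found in the Pdgfra window, and the CCAAT, AP-1 and TEAD letters, present in 37.4%, 7.81% and 14.7% of promoters, were in none of the 3 windows. A match describes the letters and shows no binding.

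Pdgfra encodes the receptor for most PDGF chains and is the receptor most used to mark fibroblasts of the heart. It stood at 4.91, 1.38 and 5.20 on heart 1, 2 and 3, compared with 5.37, 3.40 and 3.35 on tail 1, 2 and 3. Heart 1, heart 3 and the array labelled tail 1 were high, heart 2 was lowest, and the labelled groups overlapped. Over 4 arrays Pdgfra was 3.21-fold higher in heart (5.06 ± 0.21 in heart and 3.37 ± 0.04 in tail, SD, n = 2 each; 95% interval 2.34- to 4.40-fold; limma adjusted p = 0.00677). Without tail 2 (adjusted p = 0.0506) or tail 3 (0.0578) the call was lost. The by-label difference was -0.21 (SE 1.06) over 6 arrays and 1.02 (SE 0.69) over 5.

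Pdgfrb, the partner receptor that also marks pericytes, had a smaller difference. Its levels were 4.90, 2.65 and 5.44 on heart 1, 2 and 3 and 5.34, 4.75 and 4.66 on tail 1, 2 and 3. It did not pass over 4 arrays, with a log2 difference of 0.47 and a 95% interval from -0.14 to 1.07 (limma adjusted p = 0.264). Since both receptors were read on the same array, their difference does not depend on the scaling between arrays. Pdgfra minus Pdgfrb was 0.01, -1.27 and -0.24 on heart 1, 2 and 3, compared with 0.03, -1.34 and -1.31 on tail 1, 2 and 3. Heart 2 thus stood beside tail 2 and 3 in this measure, and the array labelled tail 1 beside heart 1 and 3.

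Ddr2, the collagen receptor, was level across 5 of the arrays. It had 4.29, 2.41 and 4.22 on heart 1, 2 and 3, and 4.19, 4.15 and 4.19 on tail 1, 2 and 3. The log2 difference over 4 arrays was 0.09, with a 95% interval from -0.29 to 0.47 (limma adjusted p = 0.728). A second Ddr2 probe gave 0.11. Over 5 arrays Ddr2 was the 1 gene of the 10 whose groups did not overlap, where 19.2% of features did.

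Thy1, the surface glycoprotein CD90, was lower in heart. It stood at 5.29, 4.92 and 5.45 on heart 1, 2 and 3, compared with 5.06, 7.32 and 7.18 on tail 1, 2 and 3. Only tail 2 and 3 were high, by more than 1.5 log2 units over each other array. Over 4 arrays the level was 3.68-fold lower in heart (5.37 ± 0.11 in heart and 7.25 ± 0.09 in tail, SD, n = 2 each; 95% interval 2.77- to 4.90-fold; limma adjusted p = 0.00384). Leaving out 1 of the 4 arrays in turn gave adjusted p from 0.0113 to 0.0376. Thy1 is the 1 member in the authors' deposited table of 433 probes, with a log2 fold change of -1.74 for heart over tail, a 3.34-fold difference. That table lists folds of 2.00 and more.

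Cd44, the hyaluronan receptor, moved with Thy1. Its levels were 2.90, 2.22 and 2.60 on heart 1, 2 and 3, compared with 2.50, 4.29 and 4.24 on tail 1, 2 and 3. Over 4 arrays it was 2.86-fold lower in heart (2.75 ± 0.21 in heart and 4.27 ± 0.04 in tail, SD, n = 2 each; limma adjusted p = 0.00873). Another probe of the gene gave a log2 difference of -0.93 and did not pass when it stood for Cd44 (adjusted p = 0.0965). Without tail 2 (0.0749) or tail 3 (0.0697) the call was lost. The remaining 2 Cd44 probes were not well above background on these 4 arrays.

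Fap, the post-proline peptidase, was higher in heart over 4 arrays, with a larger absolute difference than the other 9 genes. It had 2.69, -0.84 and 3.34 on heart 1, 2 and 3, compared with 3.11, 0.54 and 0.40 on tail 1, 2 and 3. Over 4 arrays it was 5.82-fold higher in heart (3.01 ± 0.46 in heart and 0.47 ± 0.10 in tail, SD, n = 2 each; 95% interval 3.60- to 9.41-fold; limma adjusted p = 0.00692). Leaving out 1 of the 4 in turn gave adjusted p from 0.00691 to 0.0305. By label over 6 arrays the difference was 0.38 (SE 1.17), and over 5 arrays 1.66 (SE 0.91). On heart 2 the Fap signal was 1370, where the median of that array was 949 and a dim Cd44 probe read 1866. The heart 2 level of Fap, and differences within that array that use it, may therefore lie near background.

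Vim and S100a4, which encode a filament protein and a small cytoplasmic protein, gave bright signals with small differences. Vim had 8.26, 6.71 and 8.13 on heart 1, 2 and 3, compared with 8.05, 8.82 and 8.76 on tail 1, 2 and 3. Its log2 difference over 4 arrays was -0.60 with a 95% interval from -0.99 to -0.20, and it did not pass (limma adjusted p = 0.0718) except with an intensity trend and robust estimation of the variance together (0.0169). S100a4 had 8.62, 7.22 and 8.74 on heart 1, 2 and 3, compared with 8.53, 9.40 and 9.36 on tail 1, 2 and 3. Over 4 arrays S100a4 was 1.62-fold lower in heart (8.68 ± 0.09 in heart and 9.38 ± 0.03 in tail, SD, n = 2 each; limma adjusted p = 0.0473), and its second probe gave a log2 difference of -0.84. The call was lost without any 1 of the 4 arrays (0.0554 to 0.396) and under quantile normalization, where the log2 difference was -0.40 (adjusted p = 0.162). A block for the slide row (0.115) and scaling to the median (0.089) also ended it. Across arrays S100a4 reached 49.3% to 74.7% of the brightest probe's signal and Vim 32.1% to 52.3%. The part of this brightness in their small differences was not tested.

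Postn and Fn1, the matrix glycoproteins, had positive differences over 4 arrays that did not pass the test. Postn had 3.88, 0.98 and 4.69 on heart 1, 2 and 3, compared with 4.52, 3.21 and 2.92 on tail 1, 2 and 3. Its log2 difference over 4 arrays was 1.22 with a 95% interval from 0.38 to 2.06 (limma adjusted p = 0.0802). The heart arrays themselves differed by more than the tail arrays (SD 0.57 in heart and 0.20 in tail, n = 2 each). Fn1 had 8.83, 5.22 and 9.31 on heart 1, 2 and 3, compared with 9.03, 8.39 and 8.32 on tail 1, 2 and 3. Its log2 difference was 0.71 with a 95% interval from 0.15 to 1.27 (limma adjusted p = 0.111), and it passed under quantile normalization (1.00, adjusted p = 0.0245) and normexp background correction (0.0466). Postn passed under normexp (0.0368), median scaling (0.0293), the variance trend with robust estimation (0.0479) and the slide row block (0.0378). Without heart 1, where the spread is that of tail 2 and 3 alone, the adjusted p was 0.0216 for Postn, 0.0279 for Fn1 and 0.0468 for Pdgfrb.

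**Figure D2:**
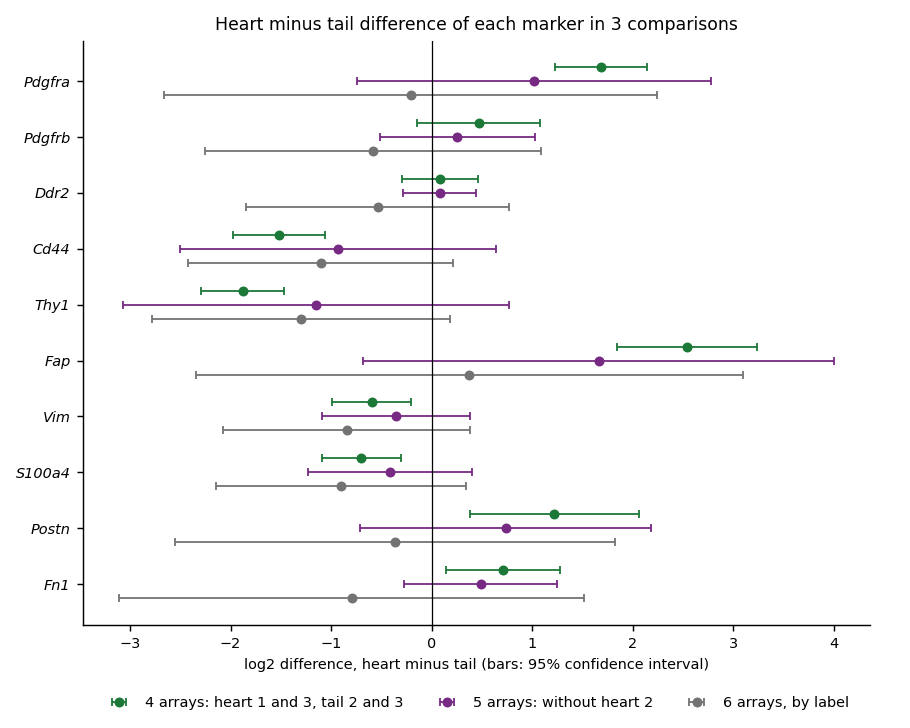
Log2 difference (heart minus tail) of each marker with its 95% confidence interval in the comparisons over 4, 5 and 6 arrays. The intervals over 4 arrays leave out 0 for all but Pdgfrb and Ddr2, while those over 5 and 6 arrays include 0 for all 10 genes; the intervals are not adjusted for the number of features.

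Since the 4-array groups did not overlap for any of the 10, the sign within each slide row was fixed, and only the sizes are given. Heart 1 minus tail 2, from the first row, gave 2.15 for Fap, 1.51 for Pdgfra, -2.02 for Thy1 and -1.39 for Cd44. Heart 3 minus tail 3, from the second row, gave 2.94, 1.86, -1.74 and -1.64 for the same genes. Of the 10, Postn had the widest gap between rows, at 0.67 and 1.77. With 1 array of each tissue per row, these values carry no test.

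Differences between members within an array need no scaling between arrays. The 4 pairs were chosen after their values were seen. Thy1 minus Pdgfra was 0.38, 3.54 and 0.24 on heart 1, 2 and 3, compared with -0.31, 3.91 and 3.84 on tail 1, 2 and 3. Cd44 minus Fap was 0.21, 3.06 and -0.74 on heart 1, 2 and 3, compared with -0.61, 3.75 and 3.84 on tail 1, 2 and 3. In both, heart 2 lay beside tail 2 and 3, and the array labelled tail 1 beside heart 1 and 3. Postn minus Fn1 differed in this for heart 2. It was -4.95, -4.24 and -4.62 on heart 1, 2 and 3, compared with -4.51, -5.19 and -5.41 on tail 1, 2 and 3, so heart 2 lay on the side of heart 1 and 3. On the 75th-percentile scale heart 2 was the lowest of 6 arrays for all 10 genes. There its nearer group was simply the lower one, which was tail 2 and 3 for 6 of 10. After quantile normalization, heart 2 was nearer to tail 2 and 3 for 10 of 10 genes. It was still the lowest array for Pdgfra, Pdgfrb, Fap, Ddr2, Postn and Fn1. Fap stood at 7.34, against 10.03 and 9.91 on tail 2 and 3. The share over all features was not computed, so these counts do not place heart 2 with a tissue. Tail 1 was nearer to heart 1 and 3 for 9 of the 10 genes, called or not, with Ddr2 the exception. Among the 2926 features called over 4 arrays, tail 1 was nearer to heart 1 and 3 for 98.6%. For tail 1 too, the share over all features was not computed.

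**Figure D3:**
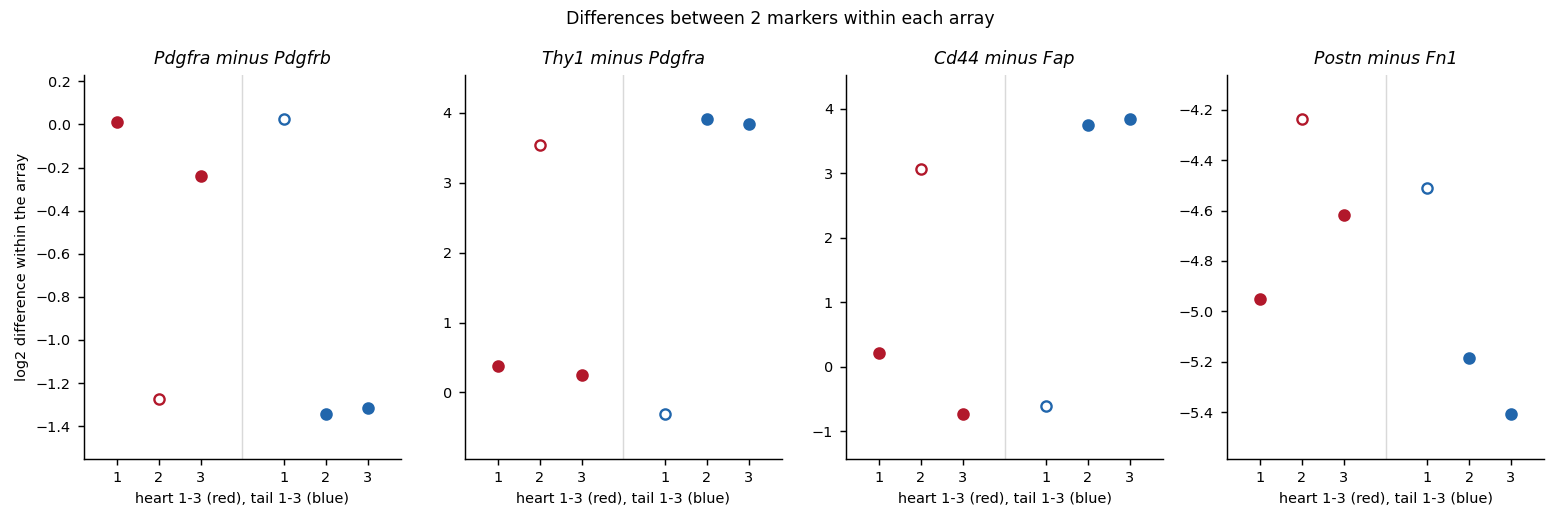
Difference between 2 markers on the same array, on the log2 scale, for heart arrays 1 to 3 (red) and tail arrays 1 to 3 (blue), with heart 2 and tail 1 as open circles. For Thy1 minus Pdgfra, heart 2 at 3.54 lies beside tail 2 and 3 at 3.91 and 3.84, and tail 1 at -0.31 lies beside heart 1 and 3 at 0.38 and 0.24; for Postn minus Fn1, heart 2 at -4.24 lies on the heart side.

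Among themselves, 8 of the 10 members formed pairs of nearest profile over the 5 arrays other than heart 2, measured as the root mean square difference of centred log2 levels. S100a4 and Vim were nearest to each other (0.10), as were Pdgfrb and Fn1 (0.12), Thy1 and Cd44 (0.24), and Pdgfra and Postn (0.30). Fap (nearest Pdgfra, 0.41) and Ddr2 (nearest Pdgfrb, 0.31) had no such partner. Among 13463 other named genes, Rsad2, 1700057H15Rik and Crispld2 had the profiles nearest to Fap (0.03, 0.05 and 0.08). Abi3, Mrtfa and Itga5 had those nearest to Thy1 (0.09, 0.09 and 0.10). These are descriptions over 5 arrays.

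**Figure D4:**
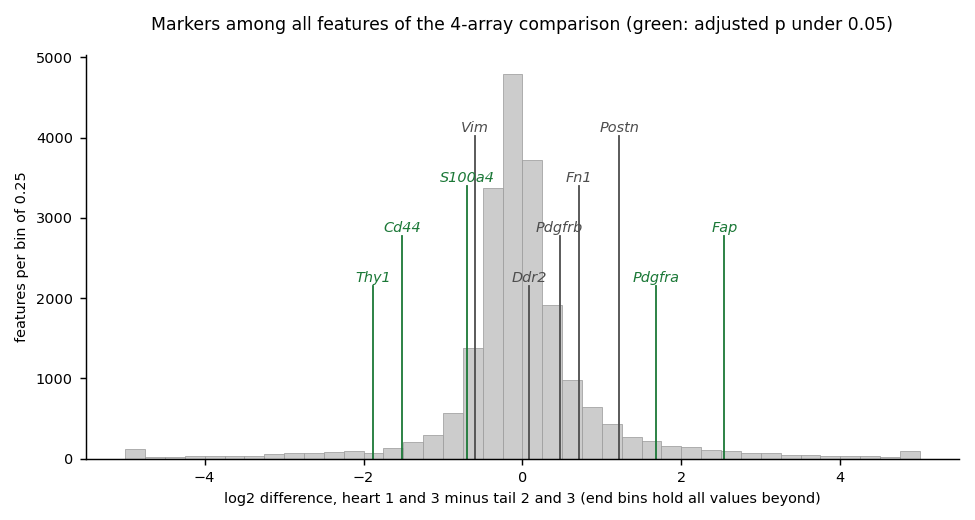
Distribution of the log2 difference (heart 1 and 3 minus tail 2 and 3) over all 20549 features tested, in bins of 0.25, with each marker drawn at its own difference and called markers in green. Fap at 2.54 and Thy1 at -1.88 lie in the outer parts of the distribution, and Ddr2 at 0.09 near its centre.

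Partners of these markers moved in both directions over the 4 arrays, where 14.2% of all features were called. By label none passed in any list. Of 4 PDGF ligands 2 were lower in heart, Pdgfc (log2 difference -4.55, SE 0.20) and Pdgfd (-1.42, SE 0.15), and none was higher. Fibronectin and periostin receptors and matrix partners had 6 of 14 higher and 3 lower. Among them were Itga8, an integrin chain (7.01-fold higher in heart), and Thbs1, a matrix glycoprotein (6.12-fold lower). Itgb8, another integrin chain, was not well above background on tail 2 or 3 and was at least 2.86-fold higher in heart. Itga5, the chain of the classical fibronectin receptor, was lower in heart (-1.74), with Fn1 itself at 0.71. In the hyaluronan list, 1 of 9 tested genes was higher, the hyaluronan-binding Tnfaip6 (2.08), and 1 was lower, the hyaluronidase Hyal2 (-0.74).

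Relatives of the members were as mixed, in a comparison that called 14.2% of all features. S100b is also counted among the Schwann cell genes below, and Lox in both the receptor list and the general fibroblast list. Of 9 tested S100 and annexin genes, 1 was lower, S100b (-2.75), and none was higher. Among 5 other filament genes and vimentin partners Nes, a filament protein, was higher (1.46), and Synm (-2.53) and Plec (-0.90) were lower. Dpp4, the peptidase closest to Fap, was 2.02-fold higher in heart, and the other 4 of its list, Ddr1 among them, did not pass. Of 30 other general fibroblast genes 10 were higher and 5 lower, with Dpt (6.23), Mfap4 (4.79) and Lum (2.95) furthest apart. The list's median was -0.17, against -0.06 over all features. Genes of activated fibroblasts were lower in heart in 7 of 12 cases and higher in 1 (median -0.99), among them the contractile regulator Cnn1 (-5.03), the matrix protein Comp (-4.83) and Ltbp2, a latent TGF-beta binding protein (-4.01).

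Some lists of markers of other cells moved with the 4-array groups, while others were mixed or had no gene called. The same comparison called 14.2% of all features. Of 12 endothelial genes 10 were higher in heart and 0 lower, and of 11 leukocyte genes 6 and 0. Summed endothelial signal was 17.2 to 22.9 times the array's 75th percentile for the heart pair (1 and 3) and 17.1 to 22.7 times for the tail pair (2 and 3). All 12 endothelial genes were well above background on heart 1 and 3, but 8 on tail 2 and 3. Those not well above background on tail, Cldn5 and Robo4 among them, entered the test through heart alone. Their direction was largely fixed in advance, and the endothelial count of 10 higher and 0 lower was thus partly fixed too. A sum follows the brightest genes and need not follow most of the list. Summed leukocyte signal was 70.2 to 130 times in heart and 55.6 to 76.6 times in tail. For 7 tested pericyte and smooth muscle genes, 1 higher and 2 lower, the sums were 62.4 to 84.4 in heart and 55.1 to 57.0 in tail. All 5 tendon genes were lower in heart (sums 3.38 to 4.87 in heart, 387 to 422 in tail), and of 5 tested mesothelial and epicardial genes 3 were higher and 1 lower (107 to 150 in heart, 2.93 to 3.01 in tail). Tnmd and Mkx were well above background on neither heart 1 nor heart 3, and Thbs4 on 1 of them. They entered the test through tail alone, so their direction was largely fixed in advance. The same holds in any list for genes well above background in 1 group only. A single gene makes up most of the mesothelial sum in heart and of the tendon sum in tail. Aldh1a2, an enzyme of retinoic acid synthesis, had 6.73 and 7.23 on heart 1 and 3 and -0.85 and -1.39 on tail 2 and 3, on the log2 scale, while the keratin Krt19 was lower in heart (log2 difference -5.25). Thbs4, a matrix protein of tendon, had -2.91 and -4.23 on heart 1 and 3 and 8.62 and 8.50 on tail 2 and 3. On heart 2 it had 5.98 and on tail 1 -3.55. The tendon sums on heart 2 and tail 1 were 68.0 and 6.33, and the mesothelial sums 3.02 and 130. For endothelial, leukocyte, and pericyte and smooth muscle genes, heart 2 had the lowest sum of the 6 arrays (10.3, 24.6 and 20.7). Of 4 tested cartilage genes 1 was higher and 2 lower (8.05 to 8.90 in heart, 5.09 to 5.44 in tail). Schwann cell genes had 1 of 4 higher and 1 lower (2.51 to 5.53 in heart, 3.35 to 3.63 in tail), with Erbb3 not above background. Of 5 tested cardiomyocyte genes 1 was higher and 1 lower (2.34 to 3.85 in heart, 1.42 to 2.19 in tail), with Pln and Ryr2 not above background. Keratinocyte genes gave 5.96 to 6.42 in heart and 5.27 to 5.96 in tail, with none of 3 tested called. The part of these cells in the differences of Fap, Pdgfra, Thy1, Cd44 and S100a4 was not tested.

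**Figure D5:**
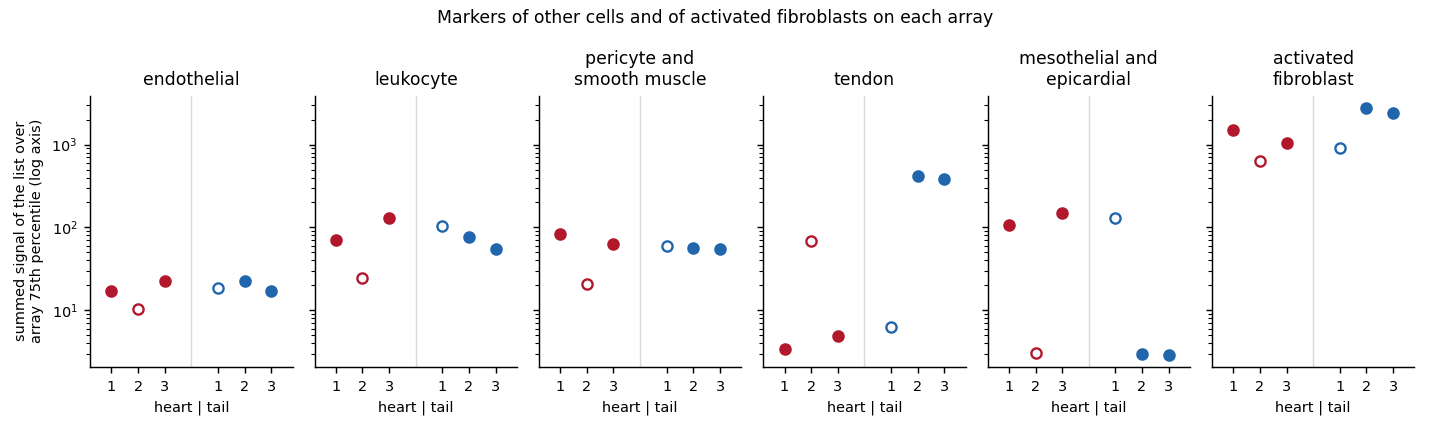
Summed signal of 6 gene lists relative to the array's 75th percentile (log axis) on heart arrays 1 to 3 (red) and tail arrays 1 to 3 (blue), with heart 2 and tail 1 as open circles. Tendon markers sum to 3.38 to 4.87 on heart 1 and 3 but to 387 to 422 for tail 2 and 3. The endothelial sums overlap, although 10 of 12 endothelial genes were higher in heart over these 4 arrays. That count was partly fixed by the filter on dim probes.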

How the data were processed

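Spot intensities in the deposited files came from Agilent Feature Extraction 11.0.1.1 per the file headers, background-subtracted and detrended within each array but not scaled between arrays, with median spot and background intensities and other 0 or 1 flags per spot. The authors' deposited table gives a log2 fold change and an absolute fold ratio of heart over tail for 433 probes; its making is not described in the labels or headers. Members, lists and comparisons were chosen with earlier results of these data known.

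Outlier spots were left out and spots of a probe averaged. A probe was tested where every array of 1 or both groups had it well above background, and the probe brightest over the 5 arrays other than heart 2 stood for its gene. RefSeq accessions named 27235 probes, and 27 more took the authors' name. Groups came from titles and were compared with limma 3.58.1 (R 4.3.3; two-sided, Benjamini-Hochberg adjusted p under 0.05 over all features). The fit was tested on simulated data with independent noise. These held no array that stood apart and no choice of arrays by outcome, so that test does not bear on either. Alternatives covered scaling, background, filter, probe, variance, blocks and left-out arrays. All members were named, and up to 3 called genes with the largest difference from each list of related genes; Itga5, Ddr1 and the keratinocyte, Schwann and cardiomyocyte genes below background were named after their values were seen. The number of arrays limits the precision, and p-values measure the spread between pooled cultures.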

Additional observations from a re-analysis of the deposited data

How the results depend on the processing

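With all 6 arrays by label no member passed under any setting other than array weights, which called 3 members and 2042 features. Those weights rest on the outcome itself, so the calls do not stand apart from the choice of arrays. The replicate number as a block gave 85 features and no member. Same-numbered arrays deviated from their group means with correlations of 0.199, 0.264 and -0.334, and heart 2 and 3 correlated best with another number. These means include heart 2 and tail 1, so the correlations cannot tell whether the numbers pair the cultures. Leaving out single arrays gave 0 to 173 features and 0 members. Directions turned by label under array weights for Pdgfra (1.58), Pdgfrb (0.45), Ddr2 (0.0533), Postn (1.20) and Fn1 (0.67), under quantile normalization for Pdgfra (0.19) and Fap (-0.14), and under median scaling for Fap (-0.59). Over left-out arrays the by-label differences spanned -0.89 to 1.02 for Pdgfra, -1.14 to 0.25 for Pdgfrb, -0.43 to 1.66 for Fap, -0.86 to 0.079 for Ddr2, -1.12 to 0.74 for Postn and -1.56 to 0.49 for Fn1. The median of all features lay at -0.35 by label, -0.30 with quantile and -1.31 with median scaling.

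Over 5 arrays, leaving out 1 array gave 0 to 2926 features and 0 to 5 members, the highest without tail 1, and Pdgfrb spanned -0.0162 to 0.52. Over 4 arrays, members kept their direction under every alternative run, but this was partly fixed in advance. Since the groups did not overlap, leaving out an array could not turn a sign. The filter, variance trend and row block settings leave the difference itself unchanged. Without a filter 698 features and 0 members passed; the number of features tested was then 37066, and the adjusted p was 0.0554 for Thy1, 0.0661 for Fap, 0.0762 for Pdgfra, 0.0904 for Cd44 and 0.292 for S100a4. Left-out arrays gave 1485 to 4058 features and 2 to 7 members; without tail 2 it was 1817 features and without tail 3 it was 1485, with 2 members each. Normexp called 7 members and 2830 of 20549 features. The intensity trend together with robust estimation called 7 members and 3247 of 20549 features. No paired analysis was possible over 4 arrays because they share only 1 replicate number.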

Other observations

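The 2 dim Cd44 probes gave processed signals of 10.9 and 12.3 on heart 1, 1866 and 544 on heart 2, and 8.27 and 8.31 on heart 3. On tail 1, 2 and 3 they gave 5.57 to 9.80 and 5.07 to 8.51. They were well above background on heart 2 alone of the 6 arrays. The Cd44 probe that stood for the gene had 11446 on heart 2, against 3231 to 10231 on the other arrays.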
